A study of Mus musculus with 12 samples.

Results

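The Toll-like receptors, the NOD-like receptors and the proteins that pass on their signals were followed as 1 gene set in the terminal ileum, the last stretch of the small intestine, of 12 mice. Members were chosen by name. They were all genes of the deposited count table whose symbol starts with Tlr, Naip or Nod and a digit, or with Nlrp, Nlrc or Nlrx, apart from Nlrc5, and 12 named partners (Myd88, Ticam1, Ticam2, Tirap, Irak1, Irak2, Irak3, Irak4, Ripk2, Pycard, Aim2 and Cd14). This took 53 of the 23284 genes. No read fell on 6 of them (Nlrp4a, Nlrp4b, Nlrp4c, Nlrp4e, Nlrp4g and Nlrp14), which left 47 members, of which 40 passed the filter on low counts and were tested. The other 7 (Nlrp12, Nlrp1c-ps, Nlrp2, Nlrp4f, Nlrp5, Nlrp9a and Nlrp9c) had between 2 and 75 reads each over all 12 libraries.

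RNA was sequenced from 3 mice in each of 4 groups, 1 library per mouse: C57BL/6 wild type mice (WTB6x), Rag1-/- mice (RAG1x), Tcra-/- mice that were co-housed (TCRaCox) and Tcra-/- mice that were separately housed (TCRaSepx). The Rag1 enzyme joins the gene segments of antigen receptors, and without it mature T and B cells do not form. Tcra encodes the alpha chain of the T cell receptor, without which conventional alpha beta T cells are missing. For co-housing, a cage held as many wild type males, matched in age, as knockout mice, over 4 to 8 weeks. The study stated comparisons of Rag1-/- with wild type mice and of co-housed with separately housed Tcra-/- mice, which share no mouse; in addition each Tcra-/- group was set against the same 3 wild type mice. All mice came from the same supplier and were kept free of specific pathogens; the labels give no age, cage or batch, nor whether the other sequenced mice came from the mixed cages. The spread measured is therefore that between mice and not between cages.

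Values per mouse are always given in the order WTB6x3159, WTB6x3160 and WTB6x3167 for wild type, RAG1x3163, RAG1x3164 and RAG1x3168 for Rag1-/-, TCRaCox3155, TCRaCox3156 and TCRaCox3157 for co-housed and TCRaSepxT2, TCRaSepxT3 and TCRaSepxT4 for separately housed mice. They are in CPM, a gene's counts per 1000000 counts of the library, scaled by the trimmed mean of M-values (TMM), a factor per library that sets most genes level. Libraries held 37061276 to 50581616 counted reads. A gene was called higher or lower at an adjusted p below 0.01 in edgeR's quasi-likelihood test, 2-sided, with Benjamini-Hochberg adjustment over all 15866 genes tested. Differences are log2 fold changes ± standard error (SE).

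Markers of the ileum and its epithelium were present in every library. The summed level of 10 epithelial markers, Epcam and Vil1 among them, ran from 14880 to 17110 CPM over the 12 mice. Single markers differed within it: Epcam and Vil1 were called lower, and the epithelial transcription factor Elf3 higher, in Rag1-/- against wild type mice and in co-housed mice against both separately housed and wild type mice. Epcam was at 2361 to 2711 CPM in wild type, 1890 to 2106 in Rag1-/-, 1907 to 2224 in co-housed and 2522 to 2717 in separately housed mice. The part of the epithelium in the members' levels was not tested. The targeted gene did not follow its label: Rag1 had 236 reads in the mice labelled Rag1-/- and 0 in each of the other groups, whereas 10 of 10 B cell and 10 of 10 T cell markers were called lower in those mice. The Tcra gene was not measured under that name. In what follows Rag1-/- and Tcra-/- stand for the labels.

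Toll-like receptors are membrane proteins that recognise molecules common to microbes. Those on the cell surface bind lipoproteins, lipopolysaccharide and flagellin, and those inside endosomes bind nucleic acids or, in the mouse, a protein of protozoa. Most signal through the adaptor MyD88 to the IRAK kinases, and some through the adaptor TRIF, which Ticam1 encodes; both routes lead to NF-kB and interferon regulatory factors. NOD-like receptors lie in the cytosol: NOD1 and NOD2 sense fragments of the bacterial wall and signal through the kinase RIPK2, while NAIP, NLRC4 and several NLRP proteins form inflammasomes, complexes that activate caspase-1, often through the adaptor ASC, which Pycard encodes. In the intestine these receptors sit both in epithelial cells, which face the microbiota, and in macrophages, dendritic cells and lymphocytes below them.

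Stretches of 250 bases before the start of 3 members are shown because these members stand for the patterns described below: Naip1 and Naip5, paralogs of 1 gene cluster, called in opposite directions in both stated comparisons, and Myd88, the shared adaptor. They are RefSeq sequences of GRCm38.p6, read 5′ to 3′ on the gene's strand, at chr13:100452865-100453114 (minus strand) for Naip1, chr13:100247337-100247586 (minus strand) for Naip5 and chr9:119340019-119340268 (minus strand) for Myd88. Capitals mark, in the Naip genes, the longest run of bases that both share, 14 bases long and starting 110 bases before the start of Naip1 and 80 before that of Naip5. In Myd88, capitals mark a match to a STAT site and a match to an interferon-stimulated response element, which overlap.
Naip1: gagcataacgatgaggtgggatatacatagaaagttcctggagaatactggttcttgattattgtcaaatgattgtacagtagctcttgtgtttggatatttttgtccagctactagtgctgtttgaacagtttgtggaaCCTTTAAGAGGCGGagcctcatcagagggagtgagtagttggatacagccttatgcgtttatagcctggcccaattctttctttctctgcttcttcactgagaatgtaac
Naip5: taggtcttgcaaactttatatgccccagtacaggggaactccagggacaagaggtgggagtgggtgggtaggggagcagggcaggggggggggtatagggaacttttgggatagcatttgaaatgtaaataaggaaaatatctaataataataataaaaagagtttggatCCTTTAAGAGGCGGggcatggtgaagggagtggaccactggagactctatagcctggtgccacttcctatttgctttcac
Myd88: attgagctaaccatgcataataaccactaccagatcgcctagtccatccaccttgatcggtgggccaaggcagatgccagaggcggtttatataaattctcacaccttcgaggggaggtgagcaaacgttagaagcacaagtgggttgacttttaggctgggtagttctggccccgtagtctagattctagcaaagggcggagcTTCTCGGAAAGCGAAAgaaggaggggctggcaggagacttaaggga
In a global alignment of these stretches, Naip1 and Naip5 had the same base in 135 of 282 columns, or 47.9%, and the 6 pairs among Naip1, Naip2, Naip5 and Naip6 ran from 40.6 to 56.7%. The motifs searched, on both strands of the 250 bases, were GAAANNGAAA for the interferon-stimulated response element, TTCNNNGAA for the STAT site and the NF-kB consensus. Of the 10 members called the same way in both stated comparisons, 7 had a promoter that was searched. Myd88 alone among the 7 held the response element, starting 40 bases before the start, against 2.98% of all 32851 promoters of the table; a STAT site lay in Myd88, 46 bases before the start, and in Nlrx1, against 7.02%; the NF-kB consensus lay in Naip5, 218 bases before the start, against 7.25%. Nlrx1 and Tirap had more than 1 promoter searched, whereas the shares are of single promoters. A match describes these letters and no more.

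Levels of the members spanned 3 orders of magnitude per length of exon. Pycard had the highest level, a mean of 126 CPM per kilobase of exon (RPKM) over the 12 mice, followed by Nlrp6 at 66.6, Naip6 at 52.5 and Naip5 at 49.1 RPKM. Nlrp9b stood at 39.3 and Nlrc4 at 34.5 RPKM. All of these encode inflammasome proteins, and Tlr3 was the only Toll-like receptor among the 14 members above 10 RPKM, at 12.7. Another 13 members lay from 1 to 10 RPKM and 13 below 1, with Nod2 at 0.386, Tlr5 at 0.267, Nlrp3 at 0.132 and Ticam2 at 0.122 RPKM at the lower end. Fewer cells of a type and less RNA per cell cannot be told apart in these bulk libraries.

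**Figure D1:**
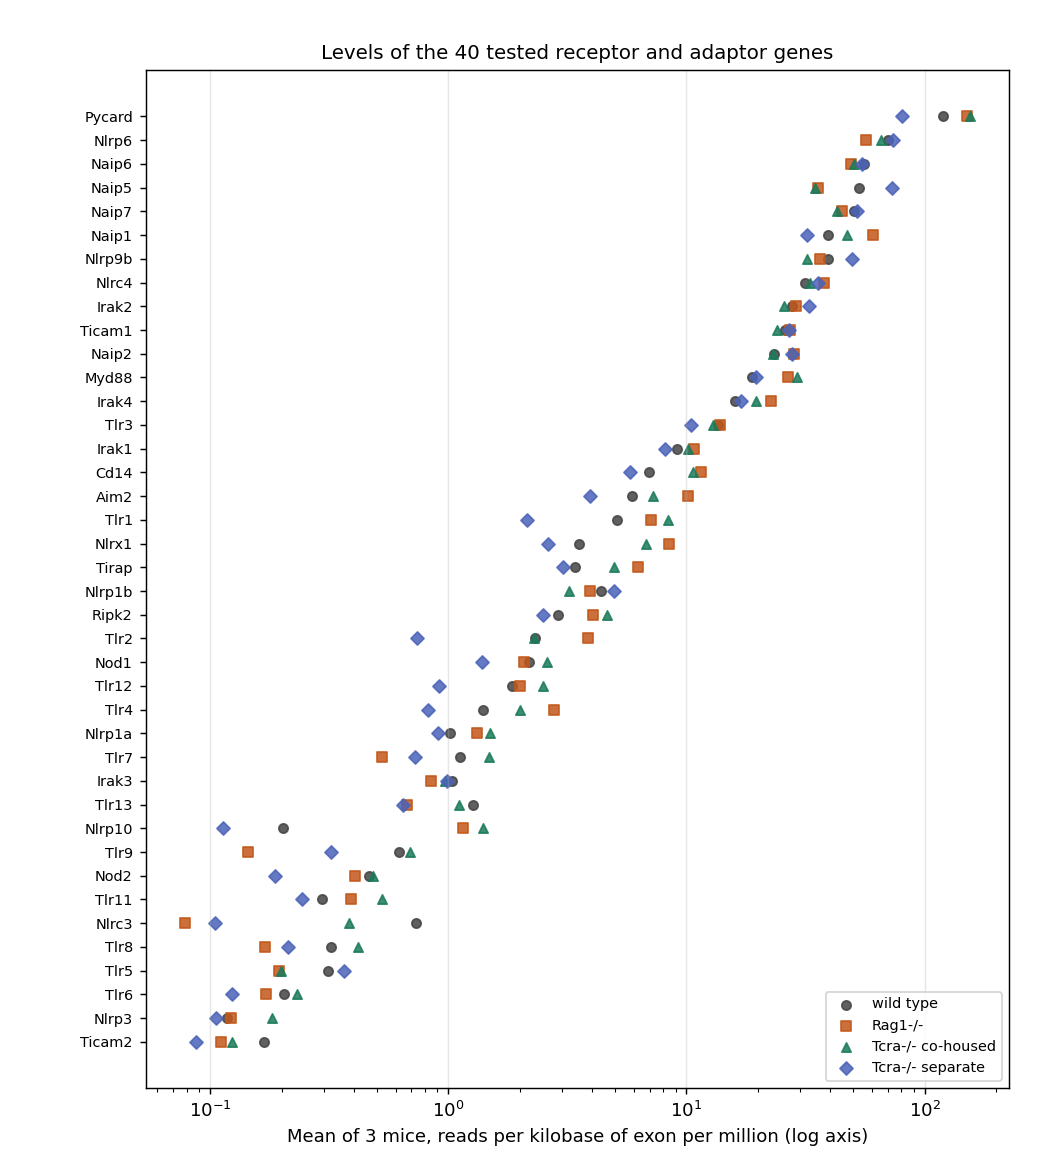
Mean level of the 40 tested members in each group (3 mice each), in RPKM on a log axis, ordered by the mean of all 12 mice. Pycard is at the top with 126 RPKM, and the groups lie farthest apart for Nlrp10 and Nlrc3.

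In Rag1-/- against wild type mice, 10 of the 40 tested members were called higher and 4 lower, 26 being called neither way. Of all genes tested, 9.42% were called higher and 11.5% lower, and the median log2 fold change was 0.06 over the members and -0.02 over all genes. In co-housed against separately housed Tcra-/- mice, 20 members were called higher and 4 lower, where 21.1% of all genes were called higher and 17.7% lower; the medians were 0.75 over the members and -0.01 over all genes. Separately housed Tcra-/- mice differed from wild type in 1 member called higher and 8 called lower (6.06 and 7.70% of all genes; medians -0.28 and 0.00). Co-housed Tcra-/- mice differed from wild type in 9 members called higher and 1 lower (9.34 and 9.19% of all genes; medians 0.18 and 0.00). In all, 25 members were called in at least 1 of the 4 comparisons and 15 in none. The like share of all genes was not counted.

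In the stated comparisons, 9 members were called higher in both: Aim2, Cd14, Myd88, Naip1, Nlrp10, Nlrx1, Pycard, Tirap and Tlr4. Naip5 was called lower in both. The share of all genes called the same way in both was not counted, so these counts describe the members alone. Nlrc3, Tlr7 and Tlr9 were called lower in Rag1-/- mice and higher in co-housed Tcra-/- mice. A further 8 members, Tlr1, Tlr2, Tlr12, Nod1, Nod2, Ripk2, Irak1 and Nlrp1a, were called higher and 3, Irak2, Nlrp1b and Nlrp9b, lower with co-housing only, and Irak4 was called higher in Rag1-/- mice only; whether the effects of those 12 differ between the comparisons was not tested.

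**Figure D2:**
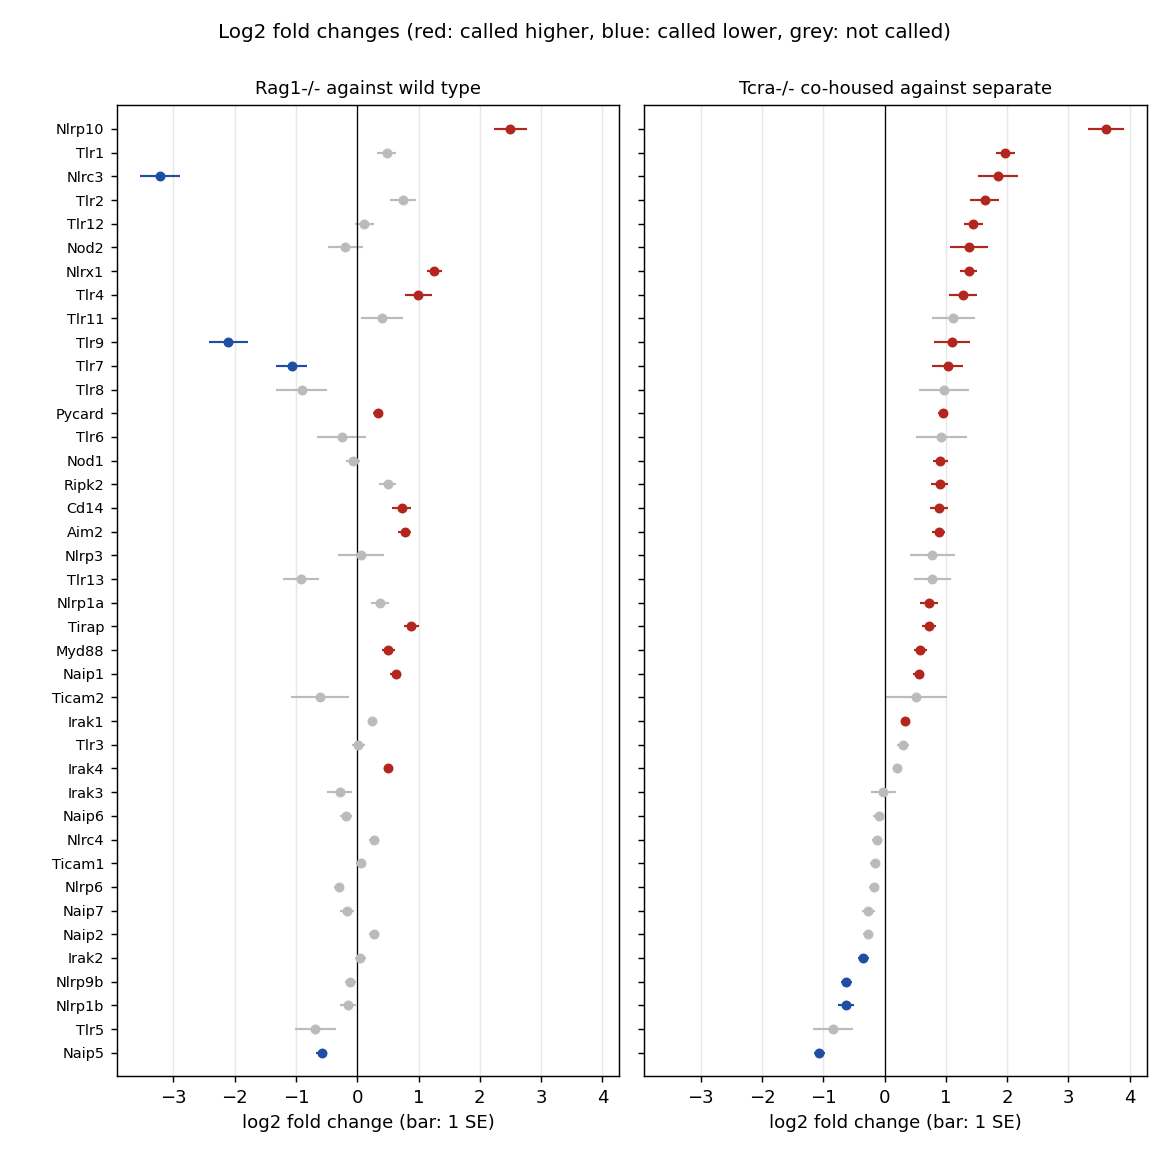
Log2 fold change with 1 SE of the 40 tested members in Rag1-/- against wild type (left) and co-housed against separately housed Tcra-/- mice (right), ordered by the right panel; red is called higher, blue called lower, grey not called. Nlrp10 is farthest to the right in both panels, and Nlrc3, Tlr9 and Tlr7 lie on opposite sides.

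Among the surface receptors, co-housed Tcra-/- mice had more Tlr1, Tlr2 and Tlr4 RNA than separately housed mice, and Rag1-/- mice more Tlr4 than wild type mice. Tlr1, which pairs with Tlr2 to bind bacterial lipoproteins, was at 11.5, 11.2 and 16.5 CPM in wild type, 17.2, 16.4 and 21.0 in Rag1-/-, 22.7, 23.5 and 18.5 in co-housed and 6.03, 5.20 and 5.29 in separately housed mice. The separately housed mice lay below every other mouse, and the co-housed mice above every wild type mouse. Co-housed mice were 3.91-fold above separately housed mice (log2 fold change 1.97 ± 0.16, adjusted p = 6.86e-08), and separately housed mice were below wild type by 2.37-fold (log2 fold change -1.25 ± 0.16, adjusted p = 3.42e-05). Co-housed mice exceeded wild type by 1.65-fold (adjusted p = 0.00163), which was no longer called without mouse WTB6x3159 or WTB6x3160 (adjusted p 0.0114 and 0.0111). Of the 50-base stretches of Tlr1 transcripts, 13.6% also occur in another member, mostly its paralog Tlr6, so reads may be split between them.

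Tlr2, the partner of both Tlr1 and Tlr6, was at 6.91, 5.82 and 6.98 CPM in wild type, 8.52, 15.9 and 8.60 in Rag1-/-, 6.91, 7.48 and 5.25 in co-housed and 2.17, 2.33 and 1.82 in separately housed mice. Separately housed mice were again the lowest, without overlap with any other group. The difference was 3.11-fold between the housings (log2 fold change 1.64 ± 0.24, adjusted p = 4.18e-05) and -1.64 ± 0.24 on the log2 scale against wild type (adjusted p = 0.000155). Rag1-/- mice lay above wild type in 3 of 3 mice but were not called (adjusted p = 0.016), with mouse RAG1x3164 far above the other two.

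Tlr4, the receptor for lipopolysaccharide, was at 4.39, 4.96 and 6.78 CPM in wild type, 9.33, 12.3 and 10.5 in Rag1-/-, 7.85, 9.65 and 5.50 in co-housed and 3.33, 3.87 and 2.30 in separately housed mice. Every Rag1-/- mouse lay above every wild type mouse, and every co-housed mouse above every separately housed mouse. Tlr4 differed by 1.00 ± 0.22 on the log2 scale in Rag1-/- mice (adjusted p = 0.00318) and 1.28 ± 0.23 with co-housing (adjusted p = 0.00033). The call in Rag1-/- mice was lost without mouse WTB6x3159, WTB6x3160 or RAG1x3164 (adjusted p 0.0189, 0.0181 and 0.0168) and with scaling by library size alone (0.0116). Cd14, which hands lipopolysaccharide to Tlr4, was at 11.1, 8.18 and 12.1 CPM in wild type, 18.4, 18.1 and 15.3 in Rag1-/-, 14.99, 16.3 and 16.6 in co-housed and 10.4, 7.36 and 8.14 in separately housed mice. The order of its group means was that of Tlr4, at 1.65-fold in Rag1-/- against wild type (adjusted p = 0.00135) and 1.85-fold in co-housed against separately housed mice (adjusted p = 0.000126). Co-housed mice exceeded wild type in Cd14 by a log2 fold change of 0.61 ± 0.15 (adjusted p = 0.00537), a call lost in 6 of 12 alternatives (adjusted p up to 0.029), among them those without mouse TCRaCox3156, TCRaCox3157, WTB6x3159 or WTB6x3160 (0.0183, 0.0168, 0.0127 and 0.029). Tlr5, the flagellin receptor, and Tlr6 had group means of at most 1.16 CPM and were called in none of the 4 comparisons.

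The endosomal receptors Tlr7 and Tlr9 were lower in Rag1-/- than in wild type mice and higher in co-housed than in separately housed Tcra-/- mice. Over the 7 endosomal receptors the median log2 fold change was -0.91 in Rag1-/- mice, where 2 were called lower, and 1.03 with co-housing, where 3 were called higher. Of all genes, 11.5% were called lower in Rag1-/- mice and 21.1% higher with co-housing. Tlr9, which binds unmethylated bacterial DNA, was at 2.14, 1.56 and 2.77 CPM in wild type, 0.392, 0.569 and 0.534 in Rag1-/-, 2.86, 2.79 and 1.56 in co-housed and 0.878, 1.42 and 1.05 in separately housed mice. Rag1-/- mice lay below all 9 other mice. Its log2 fold change was -2.11 ± 0.32 in Rag1-/- mice (adjusted p = 9.25e-05) and 1.10 ± 0.29 with co-housing (adjusted p = 0.00471). The latter was lost without mouse TCRaCox3155, TCRaCox3156, TCRaSepxT2 or TCRaSepxT4 (adjusted p 0.022, 0.0219, 0.0256 and 0.0198).

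Tlr7, a receptor for single-stranded RNA, was at 4.48, 2.79 and 5.28 CPM in wild type, 1.42, 2.08 and 2.43 in Rag1-/-, 5.31, 6.29 and 5.001 in co-housed and 2.04, 3.47 and 2.65 in separately housed mice. Rag1-/- mice lay just below wild type, the highest Rag1-/- mouse being at 2.43 and the lowest wild type mouse at 2.79 CPM, and co-housed mice lay above separately housed mice. For Tlr7 the log2 fold change was -1.07 ± 0.26 in Rag1-/- mice (adjusted p = 0.00448), a call lost without mouse WTB6x3159, RAG1x3163, RAG1x3164 or WTB6x3167 (adjusted p 0.0179, 0.0258, 0.0149 and 0.0257). It was 1.03 ± 0.25 with co-housing (adjusted p = 0.00275), lost without mouse TCRaCox3156, TCRaSepxT2 or TCRaSepxT4 (0.0127, 0.0177 and 0.0133).

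Tlr12, which with Tlr11 recognises a protozoan profilin, was at 5.44, 6.80 and 5.32 CPM in wild type, 7.25, 6.14 and 5.66 in Rag1-/-, 7.08, 7.87 and 8.77 in co-housed and 2.63, 2.84 and 3.24 in separately housed mice. Separately housed mice lay below all others, and Rag1-/- mice overlapped with wild type. The separately housed mice were 2.01-fold below wild type (log2 fold change -1.01 ± 0.16, adjusted p = 0.000222), and co-housed mice were 2.72-fold above them (log2 fold change 1.44 ± 0.16, adjusted p = 1.59e-06). Tlr3, a receptor for viral double-stranded RNA and the most abundant Toll-like receptor here, stood between 43.0 and 63.5 CPM in the 12 mice and was called in none of the 4 comparisons, nor were Tlr8, Tlr11 and Tlr13.

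Nlrc3, an NLR protein known for restraining signals in T cells and other immune cells, had the largest log2 fold change of the 40 tested members in Rag1-/- mice. It was at 2.72, 2.38 and 3.82 CPM in wild type, 0.416, 0.284 and 0.256 in Rag1-/-, 1.77, 1.78 and 1.14 in co-housed and 0.549, 0.256 and 0.481 in separately housed mice. Wild type mice were above all others, co-housed Tcra-/- mice next, and Rag1-/- and separately housed mice overlapped at the bottom. It was 9.31-fold lower in Rag1-/- mice (log2 fold change -3.22 ± 0.33, adjusted p = 1.94e-06) and 6.87-fold lower in separately housed Tcra-/- mice (log2 fold change -2.78 ± 0.32, adjusted p = 1.3e-05) than in wild type. Co-housed exceeded separately housed mice by 3.61-fold (log2 fold change 1.85 ± 0.32, adjusted p = 0.00017).

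Markers of lymphocytes moved the same way as Tlr7, Tlr9 and Nlrc3 in the stated comparisons, and against wild type mice the calls matched in part. In co-housed mice 6 T cell markers were called lower than wild type (median -1.10). EdgeR called 0 of 10 B cell markers in that comparison (median -0.41), with 2 lower at an unadjusted p below 0.05. Tlr7, Tlr9 and Nlrc3 were not called there, at 0.41, 0.15 and -0.93. In separately housed mice 10 T cell and 9 B cell markers were called lower than wild type. Nlrc3 was too, but Tlr7 and Tlr9 were not (-0.62 and -0.95). The summed level of 10 B cell markers was 176 to 217 CPM in wild type, 3.12 to 4.56 in Rag1-/-, 124 to 180.3 in co-housed and 55.6 to 99.2 in separately housed mice. The sum of 10 T cell markers was 85.6 to 128 CPM in wild type, 8.28 to 11.8 in Rag1-/-, 30.4 to 67.7 in co-housed and 13.3 to 14.4 in separately housed mice. Of the B cell markers 10 were called lower in Rag1-/- mice and 6 higher with co-housing, and of the T cell markers 10 and 8. Among all genes tested, 9.42% were called higher and 11.5% lower in Rag1-/- mice, and 21.1% and 17.7% with co-housing. These shares stand beside every marker list. The sum of 7 markers of plasmacytoid dendritic cells, which use Tlr7 and Tlr9, was 106 to 115 CPM in wild type, 82.3 to 84.8 in Rag1-/-, 88.3 to 97.7 in co-housed and 88.2 to 93.2 in separately housed mice. Klk1 and Tcf4, which other cells also express, made up most of that sum. Of the 7, edgeR called 3 lower in Rag1-/- mice (Ccr9, Klk1 and Pacsin1) and 1 higher with co-housing (Tcf4). The defining marker Siglech was at 1.13 to 1.61 CPM in wild type, 0.948 to 1.43 in Rag1-/-, 0.686 to 1.235 in co-housed and 0.459 to 0.722 in separately housed mice. Against wild type, Siglech, Ccr9 and Cox6a2 were called lower in separately housed mice and Klk1 in co-housed mice. The part of these cells in the levels of Tlr7, Tlr9 and Nlrc3 was not tested.

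**Figure D3:**
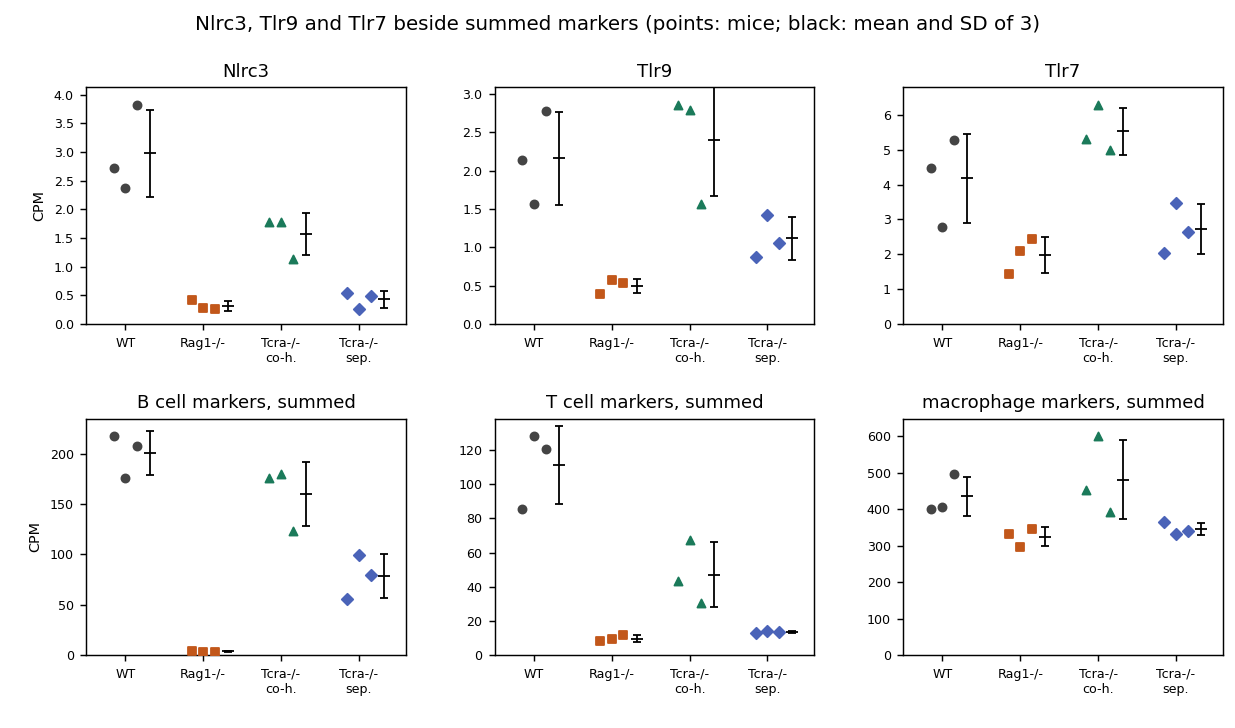
CPM of Nlrc3, Tlr9 and Tlr7 (upper row) and summed CPM of B cell, T cell and macrophage markers (lower row) in each mouse, with the mean and SD of 3 mice in black. Rag1-/- mice are lowest in Tlr9 and in B cell markers (3.12 to 4.56 CPM), and separately housed mice lie below co-housed mice in all 6 panels, macrophage markers included. Mertk, a large part of the macrophage sum in separately housed mice, ran the other way.

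Markers of myeloid cells also differed between groups. Of 16 macrophage markers, 10 were called higher and 1 lower in co-housed against separately housed mice, with sums of 392 to 601 and 332 to 366 CPM; edgeR called 0 of them in Rag1-/- mice, where 9 were lower at an unadjusted p below 0.05, DESeq2 called 1 lower and the sum was 296 to 346 against 402 to 497 CPM in wild type. Separately housed mice had 1 macrophage marker higher, Mertk, and 8 lower than wild type (6.06 and 7.70% of all genes). Mertk was also the 1 marker called lower with co-housing. Its level was 65.3 to 93.3 CPM in wild type, 49.1 to 79.1 in Rag1-/-, 45.4 to 47.9 in co-housed and 126 to 160 in separately housed mice. It thus carried much of the macrophage sum of separately housed mice. The sum of the 10 neutrophil markers in the table was 5.04 to 7.49 CPM in wild type, 12.03 to 15.9 in Rag1-/-, 12.5 to 14.7 in co-housed and 2.80 to 3.72 in separately housed mice, where S100a8 had no read. Ltf carried much of this, at 1.15 to 2.26, 7.81 to 9.08, 5.48 to 8.52 and 0.163 to 0.263 CPM in the same order. Of the 6 neutrophil markers tested, Ltf alone was called in Rag1-/- mice, and 5 were called higher with co-housing. Without Ltf, left out after its values were seen, the sum of the other 9 was 3.89 to 5.35 CPM in wild type and 4.21 to 6.85 in Rag1-/- mice, which overlap. The 10 markers of conventional dendritic cells summed to 64.1 to 81.5, 51.2 to 61.8, 59.9 to 80.4 and 48.5 to 50.9 CPM in the same order. In Rag1-/- mice Clec9a was called higher and Itgae lower, and with co-housing 6 markers were called higher and 1 lower. Itgae was at 17.7 to 29.7 CPM in wild type and 8.16 to 9.05 in Rag1-/- mice, much of the difference in the sum. Clec9a was at 1.21 to 2.29 CPM in wild type and 2.61 to 4.87 in Rag1-/- mice. Tlr1, Tlr2, Tlr4, Cd14 and Tlr12 were lowest, by group mean, in the same separately housed mice, and the part of myeloid cells in this was not tested. The macrophage sum did not share this order, since it reached lower in Rag1-/- mice (296 to 346 CPM) than in separately housed mice (332 to 366 CPM). Nor did the sum of 8 smooth muscle markers. It was 3598 to 3880 CPM in separately housed mice, 2495 to 2721 in wild type, 2286 to 2896 in Rag1-/- and 2303 to 3755 in co-housed mice. Tagln and Myl9 were called lower with co-housing and Tagln higher in separately housed than in wild type mice; the part of muscle in the members' levels was not tested.

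Of the 4 adaptors of Toll-like receptors, Myd88 and Tirap were higher in both stated comparisons, whereas Ticam1 and Ticam2 were called in none. Myd88 was at 31.96, 40.4 and 35.2 CPM in wild type, 48.1, 59.1 and 45.7 in Rag1-/-, 50.4, 58.0 and 58.5 in co-housed and 37.4, 37.5 and 36.5 in separately housed mice. All Rag1-/- and co-housed mice lay above all wild type and separately housed mice. Myd88 was higher by 0.51 ± 0.10 on the log2 scale in Rag1-/- mice (adjusted p = 0.00123), 0.58 ± 0.10 with co-housing (adjusted p = 0.000185) and 0.63 ± 0.10 in co-housed against wild type mice (adjusted p = 0.00024). With scaling by library size alone the call in Rag1-/- mice was lost (adjusted p 0.0182).

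Tirap, which recruits MyD88 to Tlr2 and Tlr4, was at 17.6, 16.3 and 15.6 CPM in wild type, 28.6, 35.7 and 27.0 in Rag1-/-, 26.8, 25.3 and 20.5 in co-housed and 15.8, 14.3 and 13.8 in separately housed mice. The same split between the groups held, without overlap. Tirap was 1.84-fold higher in Rag1-/- mice (log2 fold change 0.88 ± 0.12, adjusted p = 2.64e-05) and 1.65-fold higher with co-housing (0.72 ± 0.12, adjusted p = 9.38e-05). Against wild type, co-housed mice were higher by 0.55 ± 0.12 (adjusted p = 0.00205), a call lost without mouse TCRaCox3155 or WTB6x3167 (adjusted p 0.0126 and 0.0104) and with library size alone (0.0122). Ticam1 lay between 65.5 and 84.6 CPM in all 12 mice.

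Changes in the IRAK kinases, which act next, were small. Irak4, the first kinase of the complex, was at 44.2, 44.0 and 47.7 CPM in wild type, 61.9, 68.0 and 62.7 in Rag1-/-, 55.3, 55.2 and 55.8 in co-housed and 50.3, 46.2 and 47.6 in separately housed mice. Rag1-/- mice were above all others and co-housed mice above the rest. Irak4 was higher by 0.50 ± 0.07 on the log2 scale in Rag1-/- mice (adjusted p = 2.83e-05) and 0.29 ± 0.07 in co-housed against wild type mice (adjusted p = 0.00371). The latter was lost in 7 of 12 alternatives (adjusted p 0.0103 to 0.082), among them those without mouse TCRaCox3155, TCRaCox3156, TCRaCox3157, WTB6x3159 or WTB6x3160 (0.0117, 0.0118, 0.0103, 0.0197 and 0.0175).

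Irak1 was at 36.0, 37.3 and 34.6 CPM in wild type, 45.0, 40.7 and 42.3 in Rag1-/-, 39.6, 39.3 and 41.6 in co-housed and 32.5, 32.3 and 31.2 in separately housed mice. It was 1.25-fold higher with co-housing (log2 fold change 0.33 ± 0.07, adjusted p = 0.000764), which was lost with library size alone (adjusted p 0.0228). Rag1-/- mice, also above every wild type mouse, missed the threshold (adjusted p = 0.0104). Irak2 was at 83.8, 91.9 and 91.7 CPM in wild type, 83.5, 96.5 and 97.03 in Rag1-/-, 87.3, 76.3 and 81.98 in co-housed and 95.2, 97.8 and 119.8 in separately housed mice. It was lower with co-housing by -0.35 ± 0.09 on the log2 scale (adjusted p = 0.00446), and the call was lost without mouse TCRaCox3156, TCRaCox3157 or TCRaSepxT4 (adjusted p 0.0315, 0.0106 and 0.0319) and in a fit of the 6 libraries alone (0.0106). Irak3, a kinase-like brake on this pathway, was called in none of the 4 comparisons.

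Nod1, Nod2 and their kinase Ripk2 were all higher in co-housed than in separately housed mice, and in Rag1-/- mice edgeR called 0 of the 3, with Ripk2 at an unadjusted p below 0.05 and called by DESeq2. Nod1, which senses a peptidoglycan fragment found mainly in Gram-negative bacteria, was at 8.44, 10.4 and 9.95 CPM in wild type, 8.94, 9.48 and 9.01 in Rag1-/-, 10.7, 13.1 and 10.6 in co-housed and 6.30, 6.15 and 5.88 in separately housed mice. Separately housed mice alone were low. They were below wild type by 1.57-fold (log2 fold change -0.65 ± 0.12, adjusted p = 0.00107) and co-housed mice were 1.87-fold above them (0.91 ± 0.12, adjusted p = 1.45e-05). In Rag1-/- mice the log2 fold change was -0.07 ± 0.12 (adjusted p = 0.707).

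Nod2, the sensor of muramyl dipeptide, was at 1.395, 2.58 and 2.48 CPM in wild type, 1.62, 2.23 and 1.79 in Rag1-/-, 2.37, 2.90 and 1.44 in co-housed and 0.702, 0.769 and 1.12 in separately housed mice. All 3 separately housed mice were below the other 9 mice. The log2 fold change was 1.37 ± 0.31 with co-housing (adjusted p = 0.00148; 0.0104 without mouse TCRaCox3156) and -1.32 ± 0.31 against wild type (adjusted p = 0.00538), the latter lost without mouse TCRaSepxT2, TCRaSepxT3, WTB6x3160 or WTB6x3167 (adjusted p 0.0267, 0.0239, 0.0252 and 0.0229). Ripk2 was at 6.03, 4.96 and 5.43 CPM in wild type, 8.52, 7.94 and 6.74 in Rag1-/-, 8.45, 9.92 and 8.12 in co-housed and 5.20, 4.82 and 4.22 in separately housed mice. The co-housed and Rag1-/- mice lay above all wild type and separately housed mice. It was 1.86-fold higher with co-housing (log2 fold change 0.90 ± 0.14, adjusted p = 6.93e-05) and 1.61-fold higher in co-housed than in wild type mice (adjusted p = 0.00151; 0.0102 without mouse TCRaCox3156), and in Rag1-/- mice it missed the threshold (adjusted p = 0.0127).

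Within the NAIP family, whose proteins bind bacterial flagellin and secretion system parts and then engage NLRC4, Naip1 and Naip5 moved in opposite directions. Naip1, known for binding the needle protein of secretion systems, was at 203, 197 and 232 CPM in wild type, 284, 352 and 338 in Rag1-/-, 273, 250.1 and 236 in co-housed and 182, 169 and 166 in separately housed mice. Naip5, a flagellin receptor, was at 279.6, 315 and 249 CPM in wild type, 172, 191 and 202 in Rag1-/-, 189, 177 and 187 in co-housed and 371, 367 and 418 in separately housed mice. Naip1 was highest in Rag1-/- mice, then in co-housed mice, whereas Naip5 was highest in separately housed mice, then in wild type, and low in both other groups.

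Naip1 rose by 0.63 ± 0.09 in Rag1-/- mice (adjusted p = 5.4e-05) and by 0.55 ± 0.09 with co-housing (adjusted p = 8.58e-05), both on the log2 scale. The log2 fold change of Naip5 was -0.58 ± 0.09 in Rag1-/- mice (adjusted p = 9.86e-05), -1.07 ± 0.09 with co-housing (adjusted p = 9.45e-08), 0.45 ± 0.09 in separately housed against wild type mice (adjusted p = 0.00135) and -0.61 ± 0.09 in co-housed against wild type mice (adjusted p = 8.31e-05). Naip5 and Pycard were the 2 members called in all 4 comparisons, which share mice. How many of all genes were called in all 4 was not counted. None of the 12 alternatives ended a call of Naip1 or Naip5.

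Of the reads on the 5 Naip genes, Naip5 took 28.6 to 30.7% in separately housed, 20.5 to 25.4% in wild type, 15.6 to 15.9% in Rag1-/- and 15.4 to 19.5% in co-housed mice. Naip1 took 12.2 to 14.3% in separately housed, 15.8 to 19.1% in wild type, 25.7 to 28.9% in Rag1-/- and 21.7 to 24.6% in co-housed mice. Naip2, Naip6, Naip7 and Nlrc4 were called in none of the 4 comparisons; the lowest adjusted p among them was that of Naip2 with co-housing (-0.27 on the log2 scale, 0.0153). Of 50-base stretches, 32.3% in Naip5 and 21.5% in Naip1 also occur in another member. Naip6 and Naip7 share 4707 exonic bases in the deposited annotation, of 4842 in Naip7, so their reads are not separate measurements. Reads counted for both enter the shares above, and the sum of the 5 genes, more than once. In the mm9 coordinates of the table the family lies on chromosome 13, with Naip5 at 100981695 to 101017291 and Naip1 at 101177725 to 101222819, both on the minus strand.

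**Figure D4:**
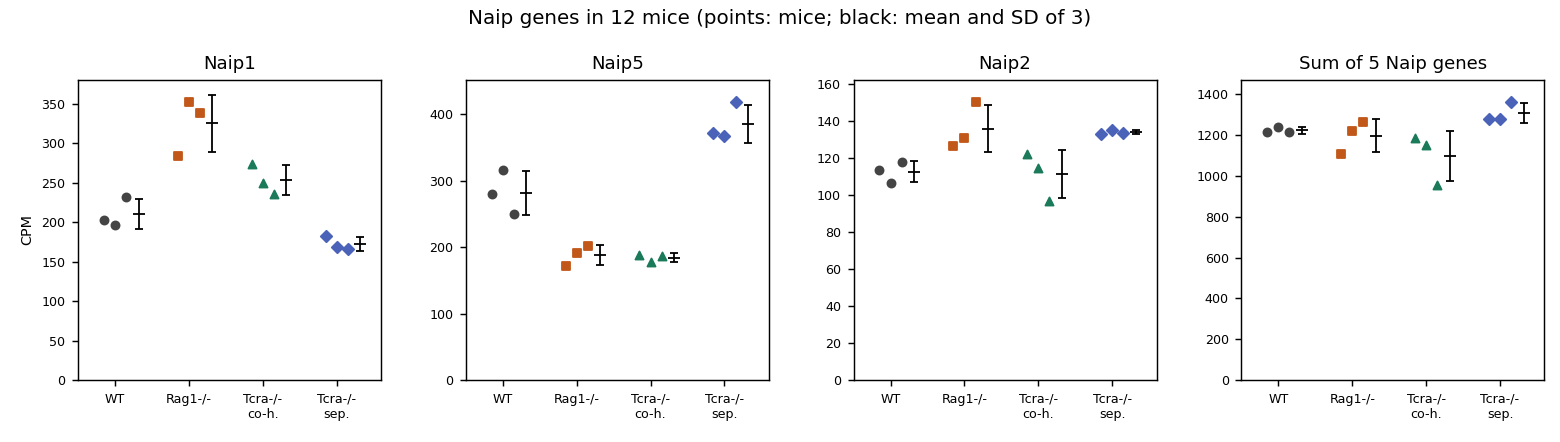
CPM of Naip1, Naip5, Naip2 and the sum of the 5 Naip genes in each mouse, with the mean and SD of 3 mice in black. Naip1 is higher, and Naip5 lower, in Rag1-/- and co-housed mice than in the other two groups, and the sum of all 5 lies between 957 CPM in a co-housed and 1363 CPM in a separately housed mouse. Reads counted for both Naip6 and Naip7 enter this sum more than once.

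Nlrp10, an NLRP protein without the leucine-rich repeats of its relatives, had the largest differences of the NLRP genes. It was at 0.855, 0.884 and 0.984 CPM in wild type, 6.34, 4.29 and 4.80 in Rag1-/-, 8.85, 3.93 and 5.94 in co-housed and 0.527, 0.443 and 0.547 in separately housed mice. The Rag1-/- and co-housed mice lay at 3.93 CPM or more and all other mice below 1 CPM. It was 5.65-fold higher in Rag1-/- than in wild type mice (log2 fold change 2.50 ± 0.27, adjusted p = 3.41e-06), 12.2-fold higher in co-housed than in separately housed mice (3.61 ± 0.29, adjusted p = 7.11e-08) and 6.83-fold higher in co-housed than in wild type mice (adjusted p = 2.09e-06). None of the 12 alternatives ended these calls.

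Nlrp1a and Nlrp1b, neighbouring genes on chromosome 11 of a sensor that responds to cleavage by proteases, differed in opposite directions between the housings. Nlrp1a was at 3.94, 5.28 and 5.46 CPM in wild type, 6.20, 6.35 and 6.45 in Rag1-/-, 7.17, 6.70 and 7.60 in co-housed and 4.24, 4.96 and 3.81 in separately housed mice. Nlrp1b was at 24.9, 25.9 and 29.6 CPM in wild type, 21.7, 19.8 and 30.7 in Rag1-/-, 21.6, 18.3 and 19.2 in co-housed and 31.4, 28.9 and 31.1 in separately housed mice. Co-housed mice had more Nlrp1a (log2 fold change 0.72 ± 0.15, adjusted p = 0.000758) and less Nlrp1b (-0.63 ± 0.13, adjusted p = 0.00101), without overlap in either. In Rag1-/- mice neither was called, and mouse RAG1x3168 lay above the other 2 in Nlrp1b.

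Nlrp9b, known as an epithelial sensor of viral RNA in the intestine, was at 126, 138 and 132 CPM in wild type, 109, 124 and 131 in Rag1-/-, 113, 95.6 and 113 in co-housed and 163, 150.3 and 183 in separately housed mice. It was 1.54-fold lower in co-housed than in separately housed mice (log2 fold change -0.63 ± 0.09, adjusted p = 2.65e-05), which stood above all other mice. Nlrp6, the other abundant NLRP gene, active mainly in epithelium, was at 235, 301 and 269 CPM in wild type, 210.3, 211 and 231 in Rag1-/-, 242, 252 and 258 in co-housed and 262, 291 and 293 in separately housed mice. Its levels were lowest in Rag1-/- mice, without overlap with wild type, but the difference missed the threshold (log2 fold change -0.30 ± 0.08, adjusted p = 0.0107). Nlrp3, the best known member of the family, lay between 0.241 and 0.846 CPM and was called in none of the 4 comparisons.

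Nlrx1, an NLR protein of mitochondria, was at 12.6, 14.8 and 14.8 CPM in wild type, 31.0, 38.3 and 31.9 in Rag1-/-, 27.5, 23.5 and 30.0 in co-housed and 11.2, 8.41 and 11.6 in separately housed mice. The split between the groups was as for Myd88 and Tirap, with no overlap. It was 2.40-fold higher in Rag1-/- mice (log2 fold change 1.26 ± 0.13, adjusted p = 2.35e-06), 2.59-fold higher with co-housing (1.37 ± 0.13, adjusted p = 5.28e-07) and 1.92-fold higher in co-housed than in wild type mice (adjusted p = 6.39e-05).

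Aim2, a sensor of DNA in the cytosol, was at 14.5, 14.01 and 16.6 CPM in wild type, 25.6, 25.6 and 25.7 in Rag1-/-, 20.4, 19.4 and 15.5 in co-housed and 10.4, 10.7 and 9.01 in separately housed mice. The 3 Rag1-/- mice were level with each other and above all other mice, and separately housed mice were below all others. Aim2 had a log2 fold change of 0.77 ± 0.11 in Rag1-/- mice (adjusted p = 5.05e-05), 0.88 ± 0.11 with co-housing (adjusted p = 8.35e-06) and -0.58 ± 0.11 in separately housed against wild type mice (adjusted p = 0.00131). Aim2 reaches caspase-1 through the adaptor that Pycard encodes.

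Pycard was at 252, 250.4 and 260.4 CPM in wild type, 328, 308 and 330.1 in Rag1-/-, 329, 327 and 334 in co-housed and 196, 160.2 and 157 in separately housed mice. Rag1-/- and co-housed mice overlapped at the top, wild type mice lay between, and separately housed mice were lowest. Its log2 fold change was 0.95 ± 0.08 with co-housing (adjusted p = 8.65e-08), -0.57 ± 0.08 in separately housed against wild type mice (adjusted p = 7.03e-05), 0.34 ± 0.08 in Rag1-/- mice (adjusted p = 0.00297) and 0.38 ± 0.08 in co-housed against wild type mice (adjusted p = 0.00162). The call in Rag1-/- mice was lost without mouse WTB6x3159, WTB6x3160, RAG1x3163 or RAG1x3168 (adjusted p 0.0136, 0.013, 0.0136 and 0.0138) and with library size alone (0.0961), as was that in co-housed against wild type mice with library size alone (0.0212).

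**Figure D5:**
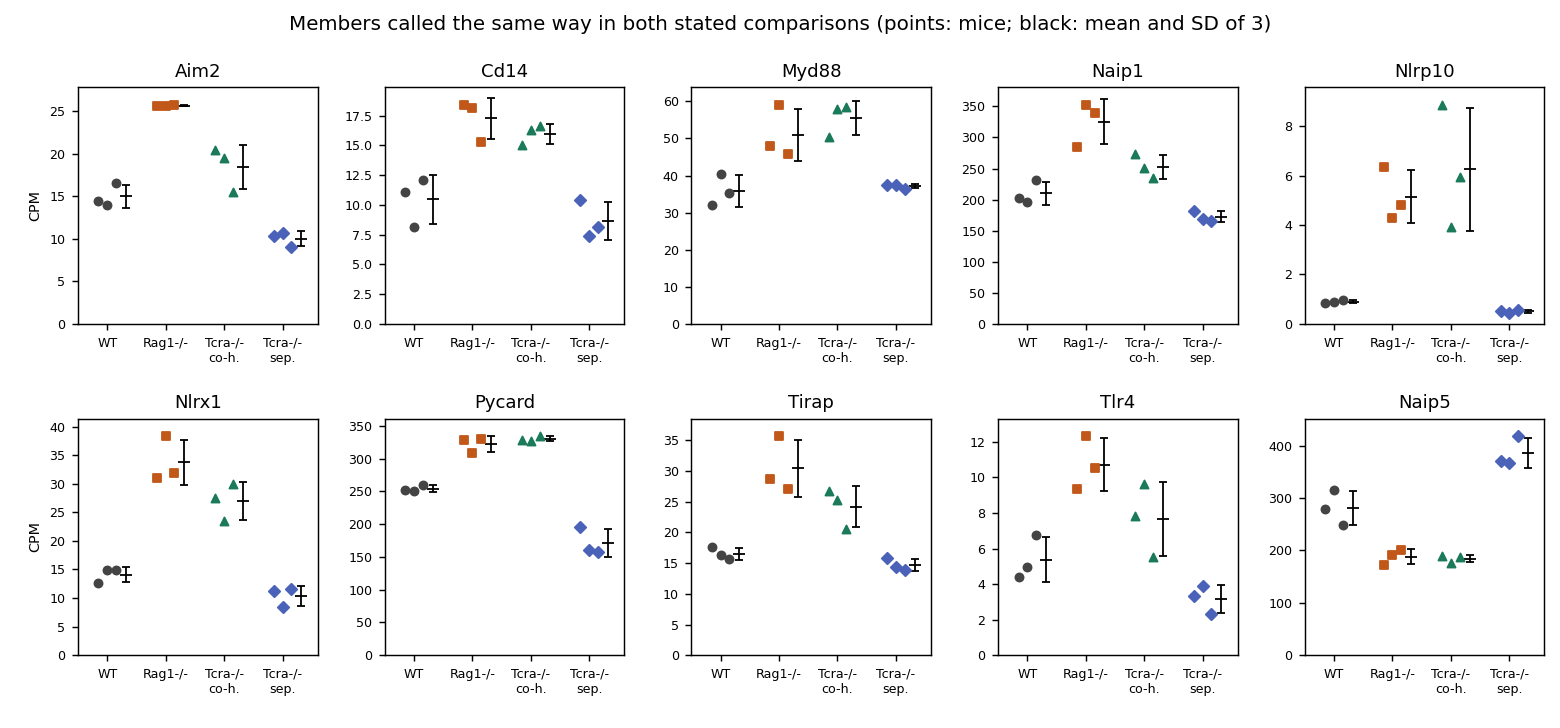
CPM in each mouse of the 10 members called in the same direction in both stated comparisons, with the mean and SD of 3 mice in black. In 9 of the panels the Rag1-/- mice lie above the wild type mice and the co-housed above the separately housed mice, and Naip5 shows the reverse; Nlrp10 goes from below 1 CPM to 3.93 CPM or more.

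Genes that work beside the members were counted from lists chosen by pathway. For every list, the shares of all genes were 9.42% higher and 11.5% lower in Rag1-/- mice (median -0.02). With co-housing they were 21.1% higher and 17.7% lower (median -0.01). Of 12 accessory proteins of Toll-like receptors, 1 was called higher and 3 lower in Rag1-/- mice (median log2 fold change -0.23), and 6 higher and 1 lower with co-housing (median 0.69). Cd180, a Toll-like receptor homologue of B cells, was lower in Rag1-/- mice by -2.87 ± 0.28 (adjusted p = 1.25e-06). Cd36, which takes up lipids and assists Tlr2, was lower in both, at -1.57 ± 0.11 (adjusted p = 4.46e-08) and -1.65 ± 0.11 (adjusted p = 1.2e-08). Lrrc33 was lower in Rag1-/- mice (-1.53 ± 0.17, adjusted p = 3.48e-06) and higher with co-housing (1.005 ± 0.161, adjusted p = 7.77e-05). With co-housing, Ly86, the partner of Cd180, was at 1.56 ± 0.20 (adjusted p = 1.61e-05), and Lbp, which binds lipopolysaccharide in the blood, was at 1.47 ± 0.21 (adjusted p = 2.42e-05). Lbp was also higher in Rag1-/- mice, at 0.89 ± 0.20 (adjusted p = 0.00272).

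Of 21 genes of shared signalling to NF-kB and interferon regulatory factors, 4 were called higher and 4 lower in Rag1-/- mice (median 0.04) and 5 and 3 with co-housing (median 0.08). The counts with co-housing lay near the shares of all genes, 21.1% higher and 17.7% lower. Card9, an adaptor for signals from fungi and from Nod2, was higher in both, at 0.89 ± 0.15 (adjusted p = 0.000434) and 1.51 ± 0.16 (adjusted p = 2.42e-06). Irf5, a factor downstream of MyD88, was lower in Rag1-/- mice at -0.64 ± 0.14 (adjusted p = 0.00265) and higher with co-housing at 1.01 ± 0.14 (adjusted p = 2.64e-05). Traf6, the ubiquitin ligase after the IRAK kinases, was higher in both, at 0.62 ± 0.09 (adjusted p = 8.49e-05) and 0.38 ± 0.09 (adjusted p = 0.0029). Irf7 was higher with co-housing at 1.38 ± 0.19 (adjusted p = 9.34e-05).

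Of 21 negative regulators, 3 were called higher and 1 lower in Rag1-/- mice (median 0.00), and 11 higher and 3 lower with co-housing (median 0.59). Socs1, an inhibitor of cytokine signalling, was 11.1-fold higher in co-housed than in separately housed mice (log2 fold change 3.48 ± 0.38, adjusted p = 2.41e-05), and Nfkbiz, an inducible nuclear IkB protein, 2.69-fold higher (1.43 ± 0.17, adjusted p = 2.41e-05). Pglyrp2, an enzyme that cleaves peptidoglycan, was lower in Rag1-/- mice by -2.84 ± 0.40 (adjusted p = 5.4e-05) and higher with co-housing at 1.41 ± 0.38 (adjusted p = 0.00596). Tnip3 and Tnip2, which bind the NF-kB inhibitor A20, were higher in Rag1-/- mice at 2.35 ± 0.45 (adjusted p = 0.000931) and 0.78 ± 0.12 (adjusted p = 0.000104). Tnip2 was also called higher with co-housing.

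Of 9 inflammasome effectors, 3 were called higher and 2 lower in Rag1-/- mice (median -0.07), and 6 higher and 1 lower with co-housing (median 0.66). Il18, a cytokine that caspase-1 matures, was 4.19-fold higher in Rag1-/- mice (2.07 ± 0.16, adjusted p = 7.83e-07) and 4.68-fold higher with co-housing (2.23 ± 0.16, adjusted p = 2.03e-07). Gsdmd, which forms the pores of pyroptosis, was higher in Rag1-/- mice at 0.66 ± 0.10 (adjusted p = 0.000125), and Nek7, a partner of Nlrp3, was lower at -0.71 ± 0.11 (adjusted p = 0.000184). Gsdmd was also called higher with co-housing. Il1b and Casp4, the latter a caspase that binds lipopolysaccharide, were higher with co-housing at 1.76 ± 0.33 (adjusted p = 0.000364) and 1.45 ± 0.13 (adjusted p = 7.5e-07).

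Of the 8 tested genes of the interleukin-1 receptor family and its regulators, which share MyD88, edgeR called 0 in Rag1-/- mice (median -0.17; 3 at an unadjusted p below 0.05, and Il18bp called higher by DESeq2), and 4 were called higher with co-housing (median 0.66). Il18bp, which binds and blocks interleukin-18, was 21.3-fold higher in co-housed than in separately housed mice, at 100.1 ± 17.6 against 4.71 ± 0.819 CPM (mean ± SD, n = 3; log2 fold change 4.41 ± 0.27, adjusted p = 4.69e-07). Both chains of the interleukin-18 receptor were higher as well, Il18rap at 2.46 ± 0.49 (adjusted p = 0.000587) and Il18r1 at 1.09 ± 0.22 (adjusted p = 0.000555).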

How the data were processed

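RNA of the terminal ileum of 12 mice was sequenced with a stranded Illumina mRNA kit, per the labels' protocols. Per the submitters' processing notes, the authors' tools were bcl2fastq, TopHat2 2.0.11, Bowtie2 2.2.2.0, featureCounts of Subread 1.4.5-p1 and DESeq2 1.12.3, with the build mm9. The deposited table, per the file headers, holds whole-number counts that were not normalized, and the length of each gene's merged exons. The annotation, the treatment of strand and that of reads with several matches were not given in the sources used here. Paralogs or overlapping genes may therefore share reads. The deposited log-transformed matrix was not used.

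Of 23284 genes, 15866 passed filterByExpr of edgeR 4.0.16 in R 4.3.3. TMM factors ran from 0.926 to 1.07. A robust quasi-likelihood model with 1 term per group was fitted to all 12 libraries (8 residual degrees of freedom), and contrasts were called at an adjusted p below 0.01, the false discovery rate of the study's design text. The SE is the absolute log2 fold change over the square root of F. RPKM is CPM per kilobase of merged exons. The fit was tested on simulated data. With 3 mice per group, small differences are measured with little precision.

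The members, pathway lists and marker lists were chosen with earlier results of these data known, so counts over them are descriptions. Members called in at least 1 comparison are given in each mouse, with Nlrp6; of each pathway list, up to 3 called genes with the largest log2 fold change per stated comparison are named. Sequences are RefSeq promoters of GRCm38.p6, matched by symbol for 39 of 47 members; shared 50-base stretches were counted in GENCODE M21 transcripts.

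Alternatives were DESeq2's size factors, library size alone, no filter, a filter of at least 1 CPM in 3 libraries, a fit of the 6 libraries compared, DESeq2 1.42.0 and leaving out each mouse.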

Additional observations from a re-analysis of the deposited data

How the results depend on the processing

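Over 1908 recomputed values of single members, 1814 kept their side of the threshold, 51 lost their call, 43 gained one and 0 changed direction while called. Values called in neither fit were counted as kept, whatever their direction. Scaling by library size alone moved the median log2 fold change of all genes to -0.19 in Rag1-/- mice and to -0.12 in both comparisons of co-housed mice, and with it the counts of members. It gave 7 members lower in Rag1-/- against wild type in place of 4, 8 lower with co-housing in place of 4, 2 higher in separately housed mice against wild type in place of 1, and 5 higher and 4 lower in co-housed mice against wild type in place of 9 and 1. In co-housed against wild type mice, a fit of the 6 libraries gave 2 lower and DESeq2 gave 3, and DESeq2 gave 2 members higher in separately housed mice against wild type; the cause was not tested. Leaving out 1 mouse gave 8 to 12 members higher and 3 to 5 lower in Rag1-/- mice, 17 to 22 and 3 to 5 with co-housing, 1 higher and 7 to 8 lower in separately housed against wild type mice, and 6 to 8 higher, in place of 9, and 1 lower in co-housed against wild type mice.

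Of the calls of single members, 10 of 14 in Rag1-/- mice, 19 of 24 with co-housing, 8 of 9 in separately housed against wild type mice and 4 of 10 in co-housed against wild type mice held in every one of the 12 alternatives. No paired analysis was possible because the mouse numbers are names and are not shared between groups. Members below about 1 CPM rest on few reads, so that differences in Nlrp3, Ticam2, Tlr5, Tlr6 and Tlr8 of the size seen in other members could go undetected. Members' reads in mice that share a cage, and in paralogs, are not independent.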

Other observations

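The 15 members called in none of the 4 comparisons by edgeR (Irak3, Naip2, Naip6, Naip7, Nlrc4, Nlrp3, Nlrp6, Ticam1, Ticam2, Tlr3, Tlr5, Tlr6, Tlr8, Tlr11 and Tlr13) held both abundant and scarce genes. At an unadjusted p below 0.05, 2 were higher and 3 lower in Rag1-/- mice, and 5 were higher and 3 lower with co-housing. The shares of all genes at that unadjusted p were not counted, here or for the lists above. These 15 were also picked for not being called, so the counts only describe them. DESeq2 called Nlrp6 and Tlr13 lower in Rag1-/- mice, Tlr11 higher with co-housing, and Tlr3 and Tlr13 lower in separately housed than in wild type mice.

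Irak1 shares exonic bases with microRNA genes Mir718 and Mir5132 in the deposited annotation. Over the 39 members whose promoter was searched, 3 held the interferon-stimulated response element (Myd88, Tlr6 and Tlr11), 7 the STAT site (Myd88, Nlrp9b, Nlrp12, Nlrx1, Nod1, Tlr1 and Tlr8) and 5 the NF-kB consensus (Irak1, Naip5, Nlrp3, Tlr2 and Tlr3), against 2.98, 7.02 and 7.25% of all promoters in the table.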
